A study of Mus musculus with 24 samples.

Results

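The interleukin-1 (IL-1) family and inflammasome genes examined here were 10 mouse genes, namely the ligands Il1a, Il1b and Il18, the receptor antagonist Il1rn, the receptors Il1r1, Il1r2, Il1rap and Il18r1, the sensor Nlrp3 and the protease Casp1. They were taken by symbol from the transcript that each array probe was designed to, and 13 of the 39429 probes of the array, or 10 of its 20659 genes with a symbol, belonged to them. CD11b+ myeloid cells (CD11b is an integrin chain carried by neutrophils, monocytes and macrophages) came from the spleen and bone marrow of male wild-type (WT), HDC-KO and STAT6-KO mice, which lack histidine decarboxylase, the enzyme that makes histamine, or the transcription factor STAT6. In the study's methods the mice were 10 weeks old and of Balb/C background. In each genotype and tissue, cells were taken from control mice and from mice 1, 2 and 4 weeks after myocardial infarction (MI), and the RNA was hybridised to one-colour arrays. Each condition was a single array of cells pooled from 5 mice, so that there was no replicate of any condition. An error given below is a standard error (SE) of a fitted difference. It rests on how the difference varied over time points, genotypes or pairs of arrays, with each gene's variance drawn toward that of all genes tested. The 4 time points of 1 genotype in 1 tissue shared a slide, 1 at each position. Genotype within a tissue and tissue within a genotype therefore cannot be told apart from slide, nor time after MI from position. Of the 24 arrays, 22 were used, and the HDC-KO spleen control and the STAT6-KO bone marrow array 1 week after MI were not analysed here.

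IL-1α (Il1a) and IL-1β (Il1b) bind the same receptor, Il1r1, which signals together with the accessory chain Il1rap, and IL-18 (Il18) acts through the related receptor Il18r1. The antagonist Il1rn occupies Il1r1 without signalling, and the decoy receptor Il1r2 binds IL-1 but cannot signal. IL-1β and IL-18 are made as precursors and are cut by caspase-1 (Casp1) inside inflammasomes, protein complexes built by sensors such as NLRP3 (Nlrp3), whereas IL-1α is active without this cut. In myeloid cells Il1b and Nlrp3 are known for rapid induction by inflammatory signals, and neutrophils and monocytes are known sources of the decoy receptor and the antagonist.

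The start regions of 3 ligand genes are shown because Il1a and Il18 had the largest spleen to bone marrow differences of the 10 genes, while Il1b, the neighbour of Il1a on chromosome 2, did not pass that test. Each region runs from 250 bases before to 50 bases after an annotated transcription start, that is, promoter followed by the start of the first exon, in build GRCm38.p6 of RefSeq. Il1a lay at chr2:129309923-129310222 on the minus strand, Il1b at chr2:129371090-129371389 on the minus strand, 61167 bases away, and Il18 at chr9:50554450-50554749 on the plus strand. Capitals mark the motifs found by search on both strands, TATAAA in all 3 and, in Il18, a STAT6-type motif (TTC and GAA spaced by 4 bases).
Il1a: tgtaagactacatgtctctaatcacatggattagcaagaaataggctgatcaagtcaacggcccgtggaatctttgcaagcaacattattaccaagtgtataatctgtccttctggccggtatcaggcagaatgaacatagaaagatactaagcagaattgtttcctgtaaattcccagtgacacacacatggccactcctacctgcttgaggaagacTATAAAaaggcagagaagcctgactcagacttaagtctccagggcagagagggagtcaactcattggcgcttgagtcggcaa
Il1b: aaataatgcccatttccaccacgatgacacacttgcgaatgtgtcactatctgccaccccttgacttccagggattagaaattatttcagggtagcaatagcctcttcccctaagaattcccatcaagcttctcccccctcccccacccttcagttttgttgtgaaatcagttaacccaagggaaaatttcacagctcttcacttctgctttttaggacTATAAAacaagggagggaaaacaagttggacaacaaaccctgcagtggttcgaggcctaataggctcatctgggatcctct
Il18: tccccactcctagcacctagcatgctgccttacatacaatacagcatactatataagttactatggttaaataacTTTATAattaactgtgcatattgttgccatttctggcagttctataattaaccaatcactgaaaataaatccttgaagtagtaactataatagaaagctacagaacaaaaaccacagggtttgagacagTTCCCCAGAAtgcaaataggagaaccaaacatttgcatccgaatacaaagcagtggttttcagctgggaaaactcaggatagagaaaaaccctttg
TATAAA stood 32 bases before the start of Il1a and 31 before that of Il1b, and was present in 13.6% of all 32851 start regions in the table. In Il18 the TATAAA letters lay on the opposite strand, 175 bases before the start, and the STAT6-type motif lay 46 bases before it. The STAT6-type motif was present in 7.0% of all start regions and in 6 of the 16 start regions of the 10 genes, which belonged to Il18, Il18r1, Il1rn and Nlrp3. The regions of Il18r1 and Il1rn that held it overlapped and shared a site, so these were 4 distinct sites. A motif for NF-κB, the transcription factor that IL-1 signalling activates (GGGA and TTCC spaced by 2 bases), was in none of the 16 and in 1.5% of all. These are matches of letters and do not show that a factor binds there. A missing match to a fixed pattern does not show that a binding site is absent either.

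All 13 probes of the 10 genes were well above background on all 22 arrays. The 75th percentile of the processed signal, the scaling value of each array, ranged from 927.9 to 2461.1 in the 11 spleen arrays and from 963.4 to 1779.8 in the 11 bone marrow arrays, and 70.4% to 79.8% of spots were well above background. The lowest share, 70.4%, was that of WT spleen 1 week after MI, the array that also had the lowest Il1r1 of all and the lowest Il1a in spleen. Levels are given below as log2 signal minus that percentile, so a level of 0 equals the percentile, and levels of different genes are not compared because probes differ in brightness. The Hdc signal was 1.67 to 2.78 on the HDC-KO arrays and 4.12 to 5.51 on all others. The Stat6 signal was 1.76 to 2.44 on the STAT6-KO arrays and 2.38 to 3.70 on WT arrays, so that STAT6-KO and WT overlapped slightly in spleen. Itgam, the gene of CD11b, was 3.52 to 4.83 in spleen and 5.10 to 5.85 in bone marrow.

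**Figure D1:**
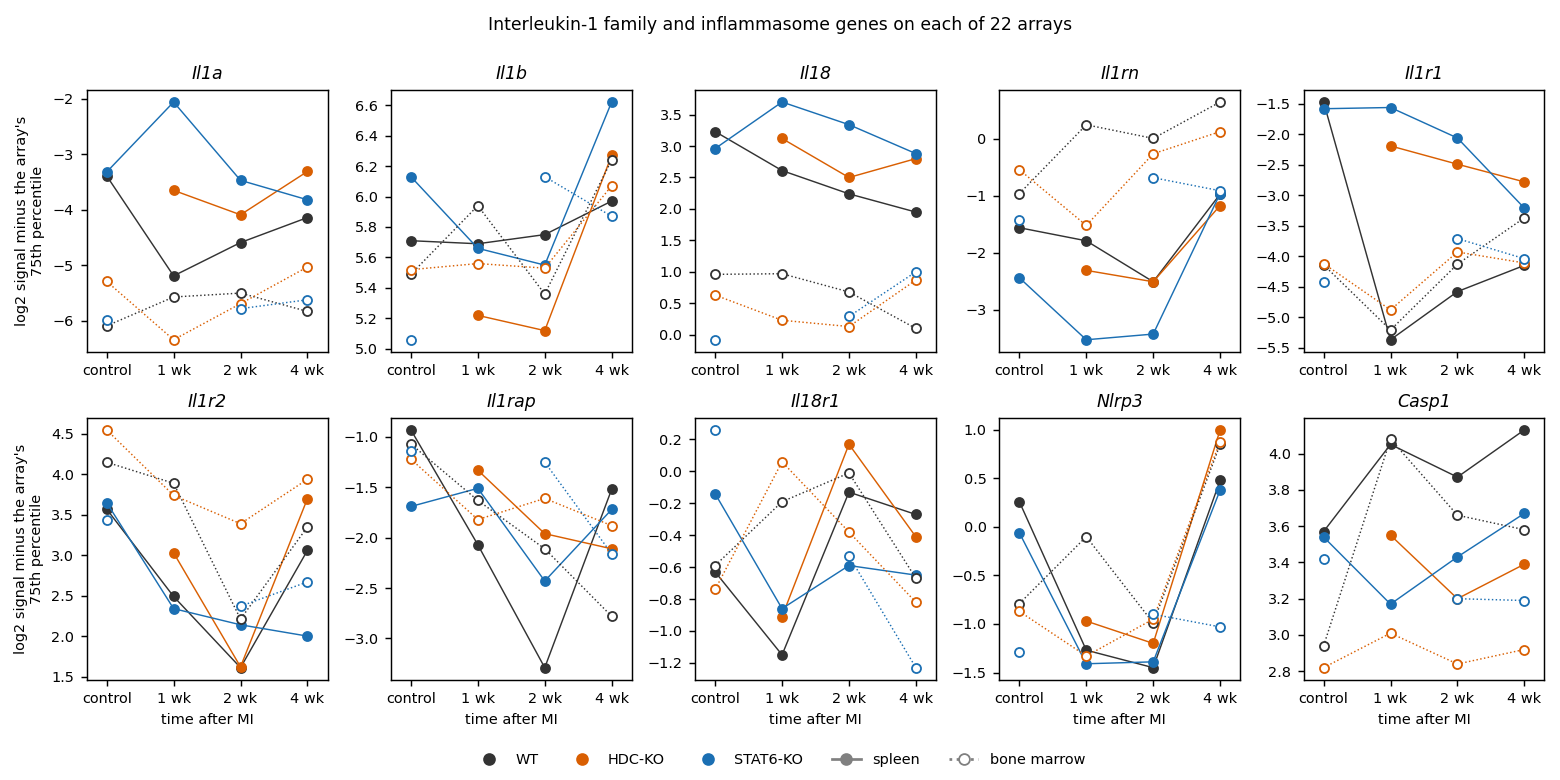
Levels of the 10 genes (log2 signal minus the 75th percentile of the array, vertical axis, scaled separately for each gene) against time after MI (horizontal axis), one point per array of pooled cells, coloured by genotype, with filled points for spleen and open points for bone marrow. Il18 separates the tissues, from 1.95 to 3.70 in spleen against -0.08 to 1.00 in bone marrow, and spleen Nlrp3 is low at 1 and 2 weeks in every genotype.

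Spleen and bone marrow were compared first, in the 10 genotype and time conditions that had both arrays. Il18 was 4.75-fold and Il1a 3.60-fold higher in spleen, and the IL-1 receptor Il1r1 was 2.31-fold and Casp1 1.28-fold higher. The antagonist Il1rn was 2.81-fold and the decoy receptor Il1r2 1.55-fold lower in spleen. Il1b, Il1rap, Il18r1 and Nlrp3 did not pass the test. In all, 6 of the 10 genes passed an adjusted p of 0.05 (4 higher, 2 lower), beside 54.4% of all genes tested, so the share was near the background of a comparison in which most genes differed. The median difference was 0.11 on the log2 scale over the 10 genes and -0.17 over all genes.

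Il18 levels in spleen ran from 1.95 through a median of 2.88 to 3.70 (n = 11 arrays), and in bone marrow from -0.08 through 0.63 to 1.00 (n = 11 arrays). The tissues did not overlap, and the lowest spleen array was WT 4 weeks after MI. The difference was 2.25 ± 0.17 (SE, 10 pairs, limma adjusted p = 1.04e-06), with single pairs from 1.56 to 3.06. By an exact two-sided sign-flip test over the pairs p was 0.00195, the smallest value that 10 pairs allow. Pairs of the same genotype shared their slides, so the 10 pairs were not independent. Here and below, the tests and errors over pairs treat them as if they were.

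Il1a ran from -5.19 through -3.65 to -2.06 in spleen and from -6.34 through -5.69 to -5.03 in bone marrow. WT spleen 1 week after MI was the single spleen array inside the bone marrow range. The difference was 1.85 ± 0.23 (SE, 10 pairs, limma adjusted p = 3.29e-05), and it was positive in 10 of 10 pairs, from 0.38 to 2.70. After another background correction (normexp) the difference was 0.76 (limma adjusted p = 0.00787). The 3 WT pairs after MI ran from 0.38 to 1.70, the WT control pair was at 2.70 and the 6 knockout pairs lay between 1.60 and 2.68. In contrast, the ranges of Il1b in the tissues largely overlapped. Il1b ran from 5.12 through 5.71 to 6.62 in spleen and from 5.06 through 5.56 to 6.24 in bone marrow. Its difference was 0.08 ± 0.17 (SE, 10 pairs, limma adjusted p = 0.722), with 5 pairs above 0 and 5 below.

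Il1rn, the antagonist, ran from -3.53 through -2.31 to -0.96 in spleen and from -1.52 through -0.54 to 0.65 in bone marrow. The ranges overlapped, but within a pair spleen was lower in 10 of 10, by -2.76 to -0.05. The difference was -1.49 ± 0.26 (SE, 10 pairs, limma adjusted p = 0.000417). Il1r2, the decoy, ran from 1.61 through 2.49 to 3.70 in spleen and from 2.21 through 3.44 to 4.55 in bone marrow, and was lower in spleen in 9 of 10 pairs. Its difference was -0.63 ± 0.18 (SE, 10 pairs, limma adjusted p = 0.01).

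Il1r1, the signalling receptor, ran from -5.37 through -2.49 to -1.47 in spleen and from -5.21 through -4.12 to -3.37 in bone marrow. It was higher in spleen in 7 of 10 pairs, and the 3 exceptions were the 3 WT pairs after MI, at -0.78 to -0.15. In the WT control pair the difference was 2.67, and in the knockout pairs it was 0.82 to 2.84. The mean difference was 1.21 ± 0.38 (SE, 10 pairs, limma adjusted p = 0.0173). Casp1 had the smallest of the called differences and ran from 3.17 through 3.55 to 4.13 in spleen and from 2.82 through 3.19 to 4.08 in bone marrow, with 9 of 10 pairs higher in spleen. Its difference was 0.36 ± 0.09 (SE, 10 pairs, limma adjusted p = 0.00713). With slide as a random block, Il1r2 and Casp1 no longer passed (adjusted p = 0.0891 and 0.127), and after normexp correction Il1r1 did not (0.68, adjusted p = 0.0671).

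The sensor Nlrp3 gave a different answer with each of its 2 probes. On the brighter probe spleen and bone marrow overlapped (-1.45 to 1.00 and -1.33 to 0.88) and the difference was 0.14 ± 0.25 (SE, 10 pairs, limma adjusted p = 0.654). On the dimmer probe Nlrp3 was lower in spleen, by -1.03 ± 0.19 (SE, 10 pairs, limma adjusted p = 0.000564). For Il18r1 the brighter probe gave -0.06 ± 0.18 (limma adjusted p = 0.792) and the dimmer probe -0.58 ± 0.23 (limma adjusted p = 0.0491). The 2 probes of Il1rap gave -0.16 and 0.33 and neither passed (limma adjusted p = 0.579 and 0.101).

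**Figure D2:**
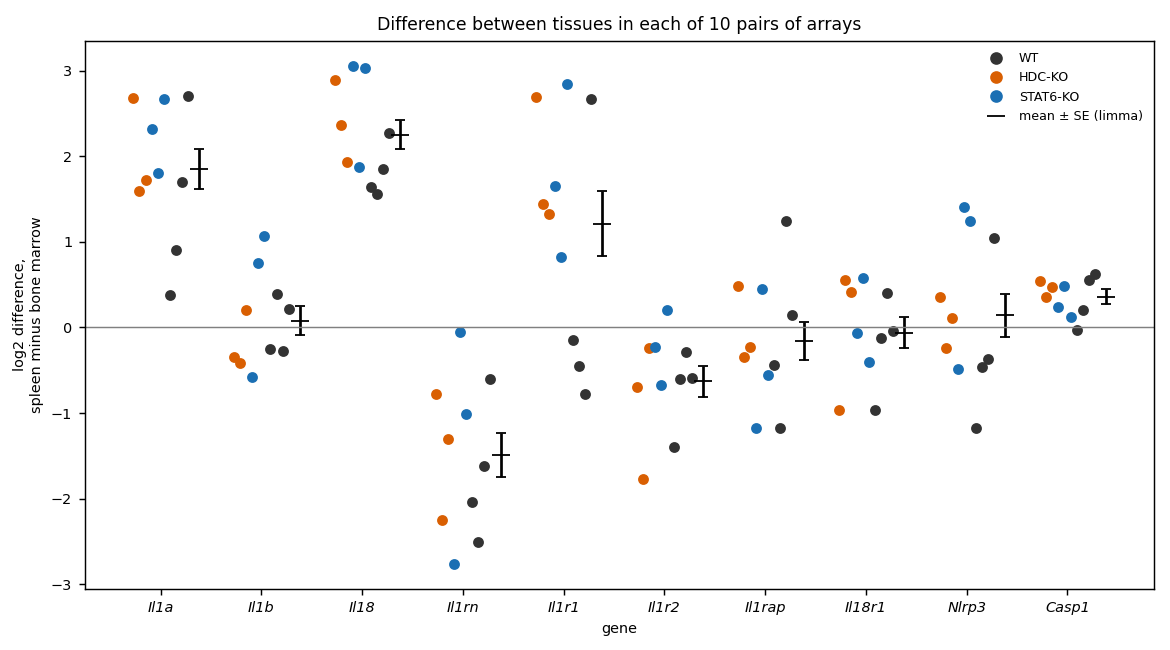
Spleen minus bone marrow differences in log2 level (vertical axis) for the 10 genes (horizontal axis), one point per pair of arrays of the same genotype and time, coloured by genotype, with the mean and SE from limma in black. Il18 and Il1a lie above 0 and Il1rn below 0 in 10 of 10 pairs, and the 3 Il1r1 points below 0 are WT pairs after MI.

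Genes of other cell types moved with tissue as well, in a comparison in which 54.4% of all genes tested passed. All 8 macrophage and monocyte markers were higher in spleen, with a summed level of 6.33 to 7.19 in spleen and 5.34 to 5.98 in bone marrow, as were 5 of 6 markers of red pulp macrophages (5.92 to 7.30 and 5.35 to 5.80). All 7 neutrophil granule genes were lower in spleen (6.71 to 7.82 and 8.04 to 8.88), and so were 5 of 7 mature neutrophil genes (7.28 to 8.47 and 8.27 to 8.90). Of the other lists, 5 of 6 B cell and 4 of 6 T cell markers were higher in spleen, and 1 of 6 in each was lower. Higher in spleen were also 4 of 6 NK cell and 4 of 6 dendritic cell markers, and 5 of 6 basophil and mast cell markers were lower. Of 6 erythroid markers 1 was higher and 2 were lower. The summed level of each of these other lists overlapped between the tissues. Their part in the differences of the IL-1 genes was not tested, and in such bulk samples fewer cells of a type and less RNA per cell cannot be told apart.

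The rest of the pathway was divided in the same comparison, in which 54.4% of all genes tested passed (6187 higher and 8870 lower of 27659). The counts of each list below stand beside that share. Of 9 other IL-1 family ligands and receptors tested, 5 were lower in spleen, and these were Il33, Il1f9 (IL-36γ), Il1rl2, Il18rap and Il18bp, with differences from -1.57 to -0.73. The 1 that was higher was Sigirr, an inhibitory receptor of the family (0.83 ± 0.16, SE). The second chain of the IL-18 receptor, Il18rap, and the IL-18 binding protein, Il18bp, were thus lower in the tissue where Il18 was higher, by -1.57 ± 0.14 and -1.13 ± 0.19 (SE, limma adjusted p = 2.73e-06 and 0.000308). The median of this list was -0.73, beside -0.17 over all genes.

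Of 17 other inflammasome sensors and partners, 8 were higher and 5 lower in spleen, with a median of 0.16, beside 54.4% of all genes passing in either direction. The largest difference was that of Aim2, the sensor of cytosolic DNA, at 2.25 ± 0.13 (SE, limma adjusted p = 1.7e-07). Of 12 signal transducers 2 were higher and 6 lower, with a median of -0.27, and Irak3, an inhibitor of the receptor's kinases, was lower by -2.35 ± 0.11 (SE, limma adjusted p = 2.19e-08). Of 12 genes that IL-1 induces, 4 were higher and 1 lower, with a median of 0.14. The higher ones were led by the acute phase gene Saa3 (2.22 ± 0.20, SE) and the neutrophil chemokine Cxcl1 (2.12 ± 0.21, SE), and the lower one was Lcn2, which is also a neutrophil granule gene. After normexp correction the difference of Cxcl1 was 1.05 (limma adjusted p = 0.000762).

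**Figure D3:**
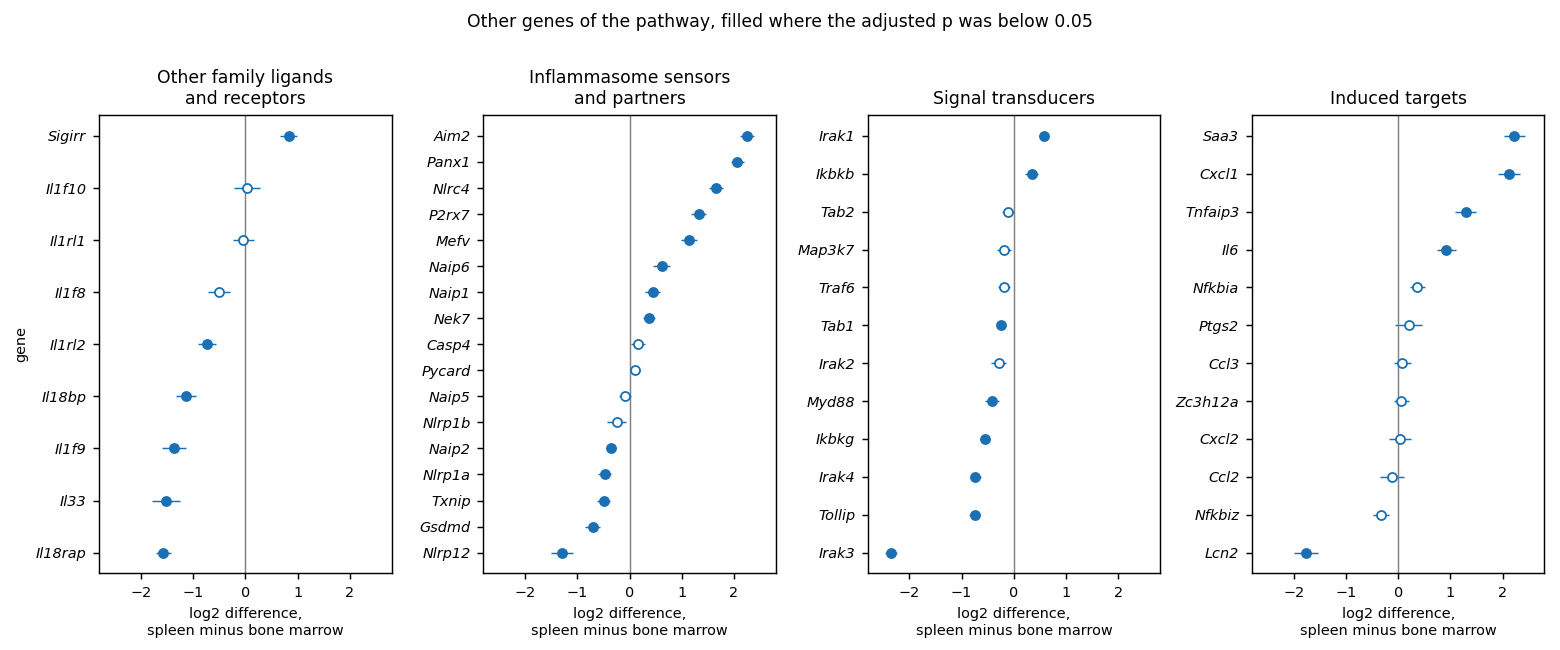
Spleen minus bone marrow differences in log2 level with their SE (horizontal axis) for the other genes of the pathway (vertical axis) in 4 lists, filled where the limma adjusted p was below 0.05. Aim2 and Saa3 reach 2.25 and 2.22, Irak3 reaches -2.35, and 5 of 9 family ligands and receptors lie below 0 with filled points. Of all genes tested, 54.4% passed in either direction.

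The knockouts were then compared with WT at matched time points. In spleen, none of the 10 genes passed the adjusted test in STAT6-KO, beside 1.91% of all genes tested, and none in HDC-KO, beside 2.77%. At an unadjusted p below 0.05 by limma there were 5 in STAT6-KO (Il1a, Il18 and Il1r1 higher, Il1rn and Casp1 lower) and 2 in HDC-KO (Il1r1 higher, Casp1 lower), beside 22.8% and 22.6% of all genes. The median difference of the 10 genes was 0.05 in STAT6-KO and 0.34 in HDC-KO, beside -0.06 and 0.06 over all genes. STAT6-KO and HDC-KO were set against the same WT arrays, so their differences are not independent.

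Il1r1 had the widest range of the 10 genes in spleen. In WT it was at -1.47 in the control and at -5.37, -4.58 and -4.15 at 1, 2 and 4 weeks after MI. In STAT6-KO it was at -1.58 in the control and at -1.56, -2.06 and -3.21 after MI, and in HDC-KO at -2.19, -2.49 and -2.78 after MI. The 3 WT arrays after MI lay below every other spleen array, and the WT control lay at the top. The difference from WT was 1.79 ± 0.55 (SE) in STAT6-KO and 1.90 ± 0.61 (SE) in HDC-KO (limma adjusted p = 0.115 and 0.126). Without the control arrays Il1r1 passed in both, and Il18 in STAT6-KO as well. Among all alternatives, however, Il1r1 passed in only 1 of 18 in STAT6-KO and 2 of 18 in HDC-KO, and Il18 in 1 of 18 in STAT6-KO. The summed level of the red pulp macrophage markers was 6.90 in the WT control and 5.92 to 6.19 in WT after MI. It was 6.22 to 6.97 in HDC-KO and 7.07 to 7.30 in STAT6-KO. None of its 6 markers passed in STAT6-KO or HDC-KO spleen, beside 1.91% and 2.77% of all genes. The other marker lists are not set beside Il1r1 here, and the part of any list was not tested.

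Casp1, the protease, was lower than WT at matched times in 4 of 4 STAT6-KO and 3 of 3 HDC-KO spleen comparisons. In WT spleen it was at 3.57, 4.05, 3.87 and 4.13 in control and at 1, 2 and 4 weeks, in STAT6-KO at 3.54, 3.17, 3.43 and 3.67, and in HDC-KO at 3.55, 3.20 and 3.39 after MI. The WT arrays after MI were the 3 highest of the tissue. The difference was -0.45 ± 0.17 (SE) in STAT6-KO and -0.56 ± 0.19 (SE) in HDC-KO (limma adjusted p = 0.165 and 0.132).

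Il1rn was lower in STAT6-KO spleen in 3 of 4 comparisons, with values of -2.44, -3.53, -3.43 and -0.96 in control and at 1, 2 and 4 weeks, against -1.56, -1.79, -2.51 and -0.97 in WT. The groups overlapped, and both were highest at 4 weeks. The difference was -0.89 ± 0.27 (SE, limma adjusted p = 0.112). In HDC-KO spleen Il1rn was at -2.31, -2.51 and -1.17 after MI, and its difference was -0.24 ± 0.30 (SE, limma adjusted p = 0.676).

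For Il18, the matched differences in HDC-KO spleen were all above 0, from 0.26 to 0.84, and the fitted difference was 0.37 ± 0.28 (SE, limma adjusted p = 0.471). For Il1a they ran from 0.50 to 1.54, with a fitted difference of 0.78 ± 0.51 (SE, limma adjusted p = 0.41). The other 5 genes, Il1b, Il1r2, Il1rap, Il18r1 and Nlrp3, had fitted differences from -0.15 to 0.21 in STAT6-KO spleen and from -0.23 to 0.43 in HDC-KO spleen. Among the other genes of the pathway, Nlrp1a, another inflammasome sensor with close copies in the genome that its probe may not separate, was lower by -1.93 ± 0.23 (SE, limma adjusted p = 0.0119) in STAT6-KO and by -1.90 ± 0.25 (SE, limma adjusted p = 0.0178) in HDC-KO. Each call was lost in 6 of 18 alternatives, among them leaving out the arrays of 1, 2 or 4 weeks in turn (adjusted p from 0.0648 to 0.153) and normexp correction (0.227 in STAT6-KO and 0.548 in HDC-KO), and with the mean over the probes of the gene the differences were -1.18 and -1.10. Nlrp12, a sensor found in neutrophils, was lower by -0.99 ± 0.19 (SE, limma adjusted p = 0.0481) in STAT6-KO, but the call was lost in 15 of 18 alternatives, and after normexp correction its difference was 0.01 (adjusted p = 0.988). No gene of the other 3 pathway lists passed in either knockout.

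In bone marrow, again none of the 10 genes passed, beside 4.6% of all genes tested in STAT6-KO and 0.417% in HDC-KO. At an unadjusted p below 0.05 by limma there was 1 in each, Il1rn in STAT6-KO and Casp1 in HDC-KO, beside 22.4% and 21.2% of all genes. Il1rn was at -1.43, -0.68 and -0.91 in STAT6-KO control and at 2 and 4 weeks, against -0.96, 0.01 and 0.65 in WT, and was lower in 3 of 3 comparisons. Its difference was -1.11 ± 0.37 (SE, limma adjusted p = 0.14). Casp1 was at 2.82, 3.01, 2.84 and 2.92 in HDC-KO and at 2.94, 4.08, 3.66 and 3.58 in WT. The HDC-KO array at 1 week lay above the WT control, and the other HDC-KO arrays lay below every WT array. Casp1 was lower in 4 of 4 comparisons, and its difference was -0.66 ± 0.19 (SE, limma adjusted p = 0.154). Nlrp1a was again lower in STAT6-KO, by -2.03 ± 0.28 (SE, limma adjusted p = 0.0108), and its difference in HDC-KO was -1.28 ± 0.25 (SE, limma adjusted p = 0.0972). The STAT6-KO call was lost in 5 of 16 alternatives, with an adjusted p of up to 0.136 (without the 2 week arrays), and with the mean over the probes of the gene the difference was -1.25.

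Whether a knockout's difference from WT was larger in one tissue than in the other was tested on the 10 pairs. None of the 10 genes passed, beside 1.2% of all genes in STAT6-KO and 1.77% in HDC-KO. At an unadjusted p below 0.05 by limma there were 2 in STAT6-KO (Il1r1 and Il18) and 1 in HDC-KO (Il1r1), beside 19% and 21.1% of all genes. For Il1r1 the spleen effect minus the bone marrow effect was 2.08 in HDC-KO (limma adjusted p = 0.0657) and 1.42 in STAT6-KO (limma adjusted p = 0.142). In bone marrow Il1r1 lay between -5.21 and -3.37 in WT, -4.88 and -3.93 in HDC-KO, and -4.42 and -3.71 in STAT6-KO, so that the genotypes overlapped there.

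**Figure D4:**
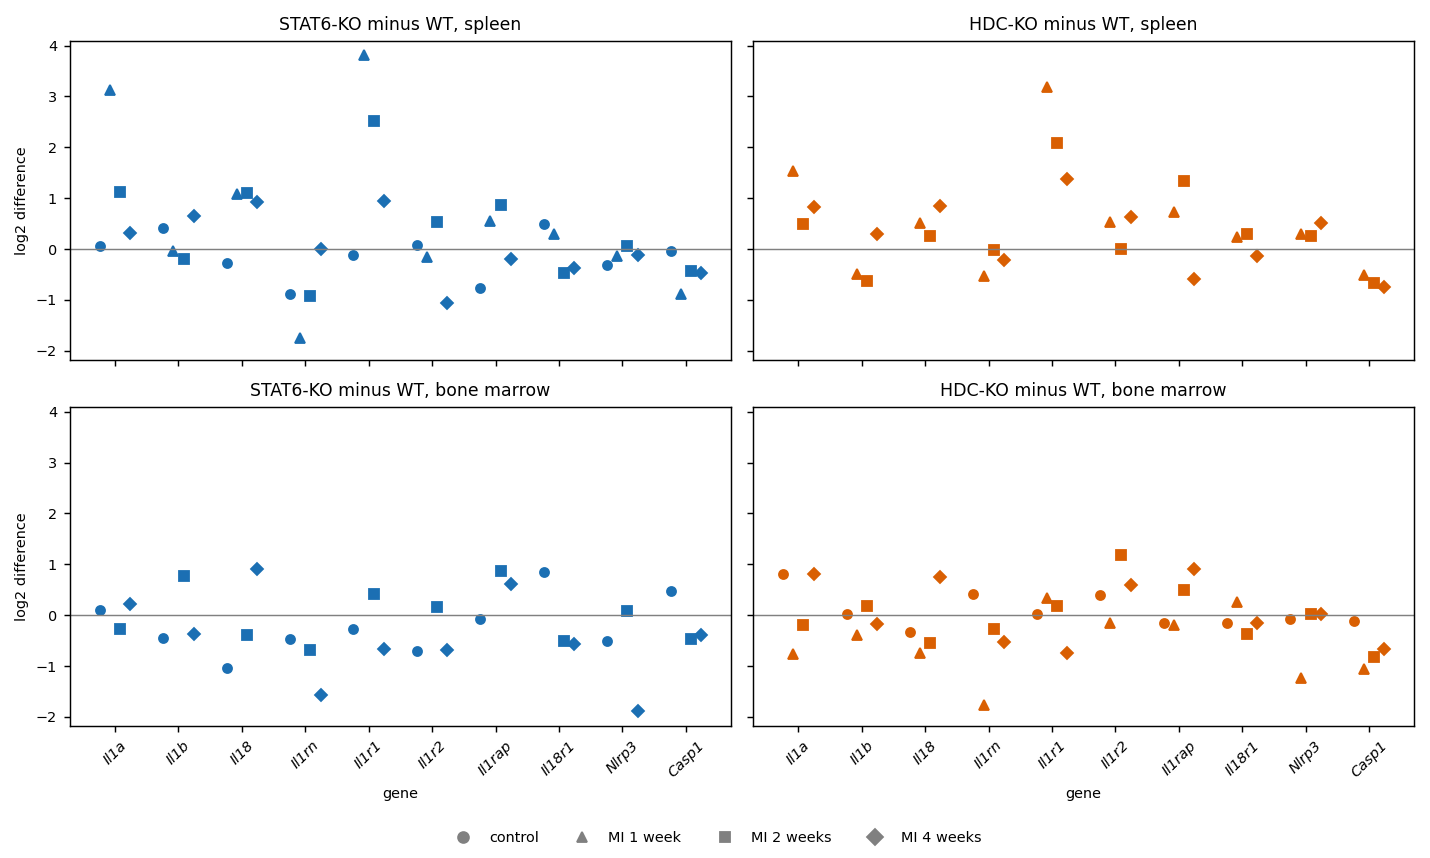
Knockout minus WT differences in log2 level (vertical axis) at each time point (symbol) for the 10 genes (horizontal axis), in spleen (top) and bone marrow (bottom), for STAT6-KO (left) and HDC-KO (right); each point compares single arrays. The highest point is spleen Il1r1 in STAT6-KO 1 week after MI at 3.81, and Casp1 lies below 0 in all but 1 of the comparisons. The WT array behind that highest point had the lowest share of spots well above background (70.4%).

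Time after MI was compared with control across genotypes, in each tissue. In spleen the sensor Nlrp3 fell at 1 week, by -1.45 ± 0.17 (SE, limma adjusted p = 0.00876), and at 2 weeks, by -1.57 ± 0.17 (SE, limma adjusted p = 0.0274). At 4 weeks its difference from control was 0.39 ± 0.17 (SE, limma adjusted p = 0.577). It was the 1 gene of 10 that passed at 1 week, beside 7.72% of all genes, and the 1 of 10 at 2 weeks, beside 2.25%. None passed at 4 weeks, when 0% of all genes did (2 of 10 at an unadjusted p below 0.05 by limma, beside 8.67% of all genes). The HDC-KO spleen control was missing, so each control difference rested on WT and STAT6-KO, with HDC-KO entering through its other times.

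Spleen Nlrp3 was at 0.26, -1.27, -1.45 and 0.48 in WT control and at 1, 2 and 4 weeks. In STAT6-KO it was at -0.06, -1.41, -1.39 and 0.38, and in HDC-KO at -0.97, -1.20 and 1.00 at 1, 2 and 4 weeks. Every array at 1 and 2 weeks lay below every control and 4 week array, in each genotype. On the dimmer probe the differences at 1 and 2 weeks were -0.41 ± 0.26 and -0.63 ± 0.26 (SE, limma adjusted p = 0.342 and 0.188), so the call rested on 1 of 2 probes. It was also lost without the WT arrays (adjusted p = 0.307 at 1 week and 0.371 at 2 weeks), without the HDC-KO arrays (0.0506 and 0.0609), without the WT spleen array 1 week after MI (0.0558 and 0.0653), at 2 weeks without the STAT6-KO arrays (0.0585), and after normexp correction (0.263 and 0.477), with the sign kept in each. At 1 week 4 of 6 T cell, 1 of 6 NK cell and 1 of 6 dendritic cell markers fell in spleen. At that time 2 of 7 neutrophil granule genes rose, beside 7.72% of all genes passing (417 higher and 1626 lower). At 2 weeks 1 of 6 B cell markers rose and 1 of 6 dendritic cell markers fell, beside 2.25% of all genes. After normexp correction 0 of all genes passed at either time. Time cannot be told apart from slide position.

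The decoy receptor Il1r2 had the next lowest adjusted p at 2 weeks in spleen. It was at 3.57 and 3.65 in the WT and STAT6-KO controls, at 1.61, 2.14 and 1.62 at 2 weeks in WT, STAT6-KO and HDC-KO, and at 3.06, 2.00 and 3.70 at 4 weeks. The 2 week arrays lay below both controls, and so did the 1 week arrays, at 2.49, 2.34 and 3.03. Its difference at 2 weeks was -1.99 ± 0.42 (SE, limma adjusted p = 0.0532). In bone marrow it was lower at 2 weeks in 3 of 3 genotypes, by -1.94 to -1.07, with a fitted difference of -1.39 ± 0.26 (SE, limma adjusted p = 0.612).

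Il1b, Il1rn and Nlrp3 were above their controls at 4 weeks in every genotype that had a control, in both tissues. In bone marrow these matched differences ran from 0.55 to 0.81 for Il1b, from 0.52 to 1.61 for Il1rn and from 0.26 to 1.76 for Nlrp3. In spleen they ran from 0.26 to 0.49, from 0.59 to 1.48 and from 0.23 to 0.43. In the same comparisons Il1r2 and Il1rap lay below their controls in every genotype that had a control, in both tissues. None of these genes passed the adjusted test. How many of all genes kept the same sign throughout was not counted. In bone marrow none of the 10 genes passed at any time, beside 0.148% of all genes at 1 week, 0% at 2 weeks and 0% at 4 weeks. At an unadjusted p below 0.05 by limma there were 1 of 10 at 1 week (Il1r1), 1 at 2 weeks (Il1r2) and 5 at 4 weeks (Il1b, Il1rn and Nlrp3 higher, Il1r2 and Il1rap lower), beside 19.7%, 7.48% and 19.1% of all genes. The accessory chain Il1rap was lower at 4 weeks by -1.13 ± 0.25 (SE, limma adjusted p = 0.0937). No gene of the 4 pathway lists passed at any time in either tissue.

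**Figure D5:**
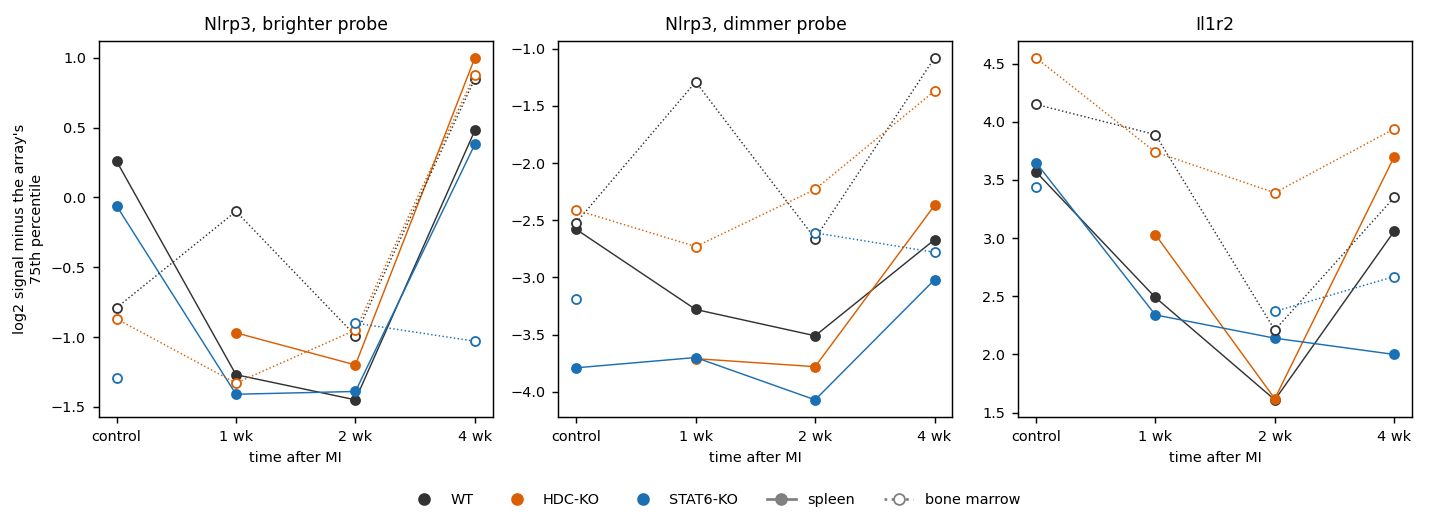
Levels of Nlrp3 on its brighter and dimmer probes and of Il1r2 (log2 signal minus the 75th percentile of the array, vertical axis) against time after MI (horizontal axis), one point per array, coloured by genotype, filled for spleen and open for bone marrow. On the brighter probe spleen Nlrp3 lies between -1.45 and -0.97 at 1 and 2 weeks and between -0.06 and 1.00 in control and at 4 weeks, while on the dimmer probe these times overlap.

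The 45 pairs of the 10 genes were correlated over the 22 arrays once the mean of each tissue was subtracted. In 5 of the 45 pairs the Pearson correlation was above 0.5. It was 0.80 for Il1rn with Nlrp3, 0.74 for Il1a with Il1r1 and 0.71 for Il1b with Nlrp3. The other pairs above 0.5 were Il1a with Il18 at 0.65 and Il1b with Il1rn at 0.59. The lowest value was -0.55, for Il1r1 with Casp1. The share of all gene pairs above 0.5 was not computed. The arrays shared slides, time points and scaling, so these values are given as a description.

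Genes alike in pattern were picked for the highest r among 14151 genes measured on all 22 arrays. That choice by itself gives high values, and the likeness was not tested. Those alike in pattern to Il18 included Tmem26 and C1qa, a complement gene of macrophages (r = 0.86 and 0.85). Casp1 was most like Samhd1, a restriction factor of myeloid cells, Trim69 and Abca7 (0.91, 0.86 and 0.86). Il1rn was most like Ppp1r18, Mark4 and Pxn (0.94, 0.92 and 0.92), Nlrp3 like Nup98, Dusp5 and Syf2 (0.91 each), and Il1b like H2-K1, Hspa5 and Cd82 (0.85, 0.85 and 0.83). Il1a was most like Erbb2, Pccb and Ppp1r9a (0.82, 0.81 and 0.81), Il1r1 like Arap2, Zdhhc2 and Myom1 (0.91, 0.88 and 0.88) and Il1r2 like Smim3, Nfil3 and Bcl2l1 (0.84, 0.83 and 0.81). Il18r1 was most like Herc3, Rapgef6 and Rasa2 (0.85, 0.82 and 0.78), and Il1rap like Dab2, Klhl9 and Zmiz1 (0.80, 0.79 and 0.78).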

How the data were processed

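RNA of CD11b+ cells was measured on 24 one-colour Agilent mouse arrays, 1 per condition, of which 22 were used because the files of the other 2 held only part of the array. The deposited values were spot intensity values from Agilent Feature Extraction 11.0.1.1, which the authors' scanner software had background-subtracted and detrended without scaling arrays to each other. The submitters' processing notes name GCRMA, and the study's methods name Genespring with a threshold of 2-fold and p of 0.05, but the scanner output was used here. Processed signals of spots flagged as outliers (3055) were left out where another spot of the probe remained (161 values had none), spots of a probe were averaged, log2 values were set relative to their own array's 75th percentile, and each gene took its brightest probe. Probes were named through RefSeq transcripts, and 27234 of 39429 had a symbol. The others were kept under the array's own name for their target, giving 32451 genes or transcripts, and the shares of all genes tested include these. Genes well above background on at least 2 arrays of a fit were tested with limma 3.58.1 (R 4.3.3) and Benjamini-Hochberg adjustment over all of them. Tissues were compared over 10 pairs of arrays, genotypes and times in additive fits within a tissue, and the tissue difference of a genotype effect on the 10 paired differences with time as a term. Pools of a condition were not replicated, so standard errors and p-values rest on the variation across conditions. No intensity was saturated, and the number of arrays limits the precision. The members and the pathway and marker lists were chosen with earlier results of these data known, and all 10 members are named. Of the pathway genes, the 4 with the largest called difference per comparison are named by rule, and Il33, Il1f9, Il1rl2, Il18rap, Il18bp, Sigirr and Lcn2 were named after their values were seen. The fits were tested on simulated data. Alternatives were other background correction (normexp, offset 50), scalings, filters, probe rules, blocks and arrays left out. One gene alike in pattern to a member is not reported here.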

Additional observations from a re-analysis of the deposited data

Results flagged for a closer look

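The matched changes after MI of the 10 genes were compared between tissues at 1, 2 and 4 weeks. In 6 cases every matched change went one way in spleen and the opposite way in bone marrow. How often this occurred over all genes was not counted. Il1r1 at 2 weeks averaged -1.80 in spleen (n = 2 genotypes) and 0.30 in bone marrow (n = 3), a gap of -2.10, and at 4 weeks -2.16 and 0.39, a gap of -2.55. The gap was -1.64 for Il1rn at 2 weeks, -1.22 for Il18r1 at 1 week, -0.92 for Il1a at 4 weeks and -0.48 for Il1b at 1 week. With 2 or 3 single arrays a side such opposite signs are easily met, and these gaps themselves were not tested. The time terms of a limma fit on the 10 pairs, added after seeing the data, bear on the same changes, and none of the 10 genes passed there, where 0 of all 27659 genes did (for Il1r1 adjusted p = 0.391 at 2 weeks and 0.848 at 4 weeks). At an unadjusted p below 0.05 by limma there were 3 of 10 at 1 week, 3 at 2 weeks and 1 at 4 weeks, beside 4403, 3391 and 1615 of all genes.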

How the results depend on the processing

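Over 209 recomputed counts of the 10 genes, 189 stayed within 1.5 times of the reported value. In most of these the reported and the recomputed count were both 0. At 1 and 2 weeks in spleen, where 1 gene was reported, the count stayed in 8 of 14 and in 5 of 14 alternatives. For spleen against bone marrow the count stayed between 4 and 8 of 10, and Il1a, Il18 and Il1rn were called under every alternative. The methods' test called 4 at their fold and p threshold and 4 after Benjamini-Hochberg. For STAT6-KO in spleen, where 0 were reported, leaving out a time point gave 0 to 2, for HDC-KO in spleen 0 to 1, and the fit on the arrays of those 2 genotypes alone gave 1. For HDC-KO between tissues, leaving out a pair gave 0 to 1. At 1 week in spleen the count of 1 became 0 to 2 on leaving out a genotype, 0 after normexp correction, 0 with the other probe and 0 without the WT array 1 week after MI (the last 2 alternatives were added after seeing the data). At 2 weeks in spleen the count of 1 became 0 to 0 on leaving out a genotype, 0 after normexp, 0 with the other probe and 0 without that WT array, and 2 with a floor on low signals, 2 with the filter on every array and 2 without the STAT6-KO array 4 weeks after MI, Il1r2 being the added gene. Among the named differences that passed the test, the sign that turned was that of Nlrp12 in STAT6-KO spleen after normexp, at 0.01. Between tissues, differences that did not pass crossed 0 for Il1b (-0.03 to 0.22), Il1rap (-0.32 to 0.33), Il18r1 (-0.58 to 0.04) and Nlrp3 (-1.03 to 0.29). The causes were not tested. Counts over all genes moved more, from 15057 to between 12175 and 15942 between tissues, from 505 to 4 and 913 for STAT6-KO and from 733 to 0 and 2586 for HDC-KO in spleen, from 1247 to 0 and 1490 and from 113 to 3 and 388 in bone marrow, from 2043 to 0 and 3327 at 1 week and from 596 to 0 and 986 at 2 weeks in spleen, from 40 to 0 and 456 at 1 week and from 0 to 543 at 4 weeks in bone marrow, and from 331 to 0 and 555 and from 489 to 0 and 1728 for the differences between tissues. Normexp moved the median of all genes by up to 0.46 (1 week in spleen) and median scaling by up to 0.29. Single pools limit every comparison, genotype and tissue cannot be told apart from slide, and time cannot be told apart from position.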
